A study of Macaca fascicularis with 23 samples.

Results

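Liver RNA of cynomolgus monkeys (Macaca fascicularis) given ciprofibrate for 15 days was compared between a dose of 400 and a dose of 150 mg/kg/day. The comparison is the top step of the dose range and addresses what the highest dose adds. It used 8 of the 23 arrays of the series, 4 animals at each dose, chosen by the dose and duration in their labels. Each array held RNA from the right lateral liver lobe of a separate animal, measured as probe set intensity on an array designed for human genes. The other 15 arrays, which entered the fit and are given as background, were 3 animals on vehicle for 15 days, 4 each on 3 and 30 mg/kg/day for 15 days, and, after 4 days, 2 each on vehicle and on 400 mg/kg/day. Sex, age and dosing route of the animals are not given in the sources used here.

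Ciprofibrate is a fibrate, a class of lipid-lowering drugs that activate the nuclear receptor PPAR-alpha. In liver this receptor binds DNA together with RXR and raises transcription of genes for fatty acid uptake, for oxidation in mitochondria and peroxisomes, and for ketone body production. Rodent livers answer fibrates with peroxisome proliferation and growth, whereas primate livers are known to respond much less. Metallothioneins, which are prominent in the comparison below, are small cysteine-rich proteins that bind zinc and copper and are induced by metals, glucocorticoids and oxidative stress.

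Array medians ran from 55 to 63 at 400 mg/kg/day and from 59 to 65.5 at 150, and the trimmed means of all arrays of the series lay between 150.06 and 150.08. The 5'/3' ratio of the ACTB control probe sets was 0.681 ± 0.126 (SD, n = 4) at 400 and 0.640 ± 0.135 (SD, n = 4) at 150 mg/kg/day (exact permutation p = 0.657, two-sided), and for GAPDH it was 1.11 ± 0.12 and 1.21 ± 0.16 (SD, n = 4 each, exact permutation p = 0.314). With 4 animals against 4 the smallest p such a test can give is 0.0286. The arrays at 400 mg/kg/day were closer to their own group, with a mean correlation across probe sets of 0.922 to 0.926, than those at 150, with 0.888 to 0.900, and these ranges did not overlap. The values share arrays within a group and were not recomputed for each permutation, so their exact permutation p of 0.0286 is not a valid test. Arrays on vehicle, 3 and 30 mg/kg/day for 15 days ran from 0.866 to 0.906, also below those at 400. All 13 hepatocyte markers had a mean intensity at or above 39.7, the 40th percentile level of all probe sets, at 1 or both doses. Of all 8226 genes only 2195 lay under that level at both doses, so passing it does not identify the tissue.

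The 400 mg/kg/day livers differed from the 150 mg/kg/day livers in a small set of genes. Metallothioneins, CYP2E1 and several secreted plasma proteins (PZP, IGFALS, HGFAC and CFB) were lower at the higher dose, while ALDH1A1, ELOVL5, TXN, ITGA6, EXOSC2, PPP1CA, PHLDA2 and ME1 were higher. Of 12558 probe sets tested on log2(intensity + 16), 11 were called higher (0.0876%) and 13 lower (0.104%) at an adjusted p under 0.05. All 24 had 4 arrays at one dose that did not overlap the 4 at the other, as did 707 of all 12558 probe sets (5.63%). The calls come from the same arrays, so this is no separate support for them. The largest adjusted p of the 24 was 0.0406. Of these, 17 name 1 gene, 3 name several and 4 name none. Of the 3, 769_s_at (ANXA2, ANXA2P1 and ANXA2P3) and 38781_at (GSTA1 and GSTA2) were higher. Their log2 differences were 1.26 ± 0.21 and 1.29 ± 0.26 (standard error of the fit, adjusted p = 0.0106 and 0.0327). The other, 41446_f_at, names MT1F, MT1G, MT1M and MT1P3 and was lower (-0.915 ± 0.18, adjusted p = 0.0268). At 1 probe set per gene, the one with the highest mean, 5 of 8226 genes were called higher (0.0608%) and 9 lower (0.109%), and PPP1CA, PHLDA2 and ME1 were called through another of their probe sets.

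**Figure D1:**
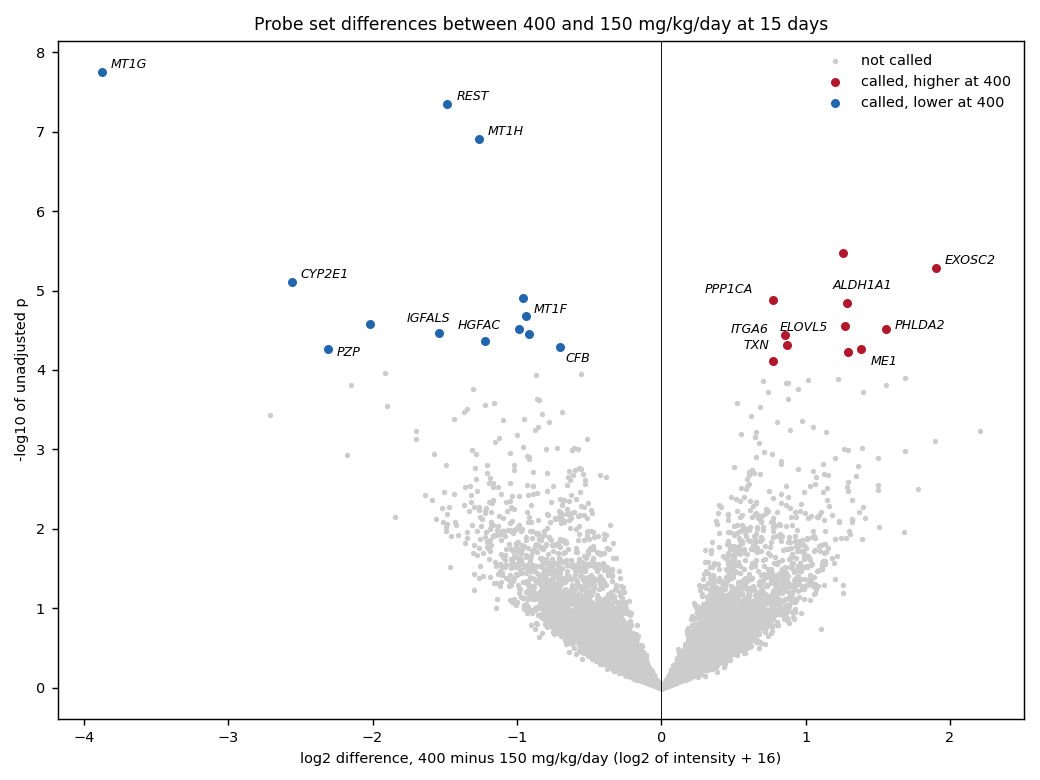
Each point is 1 of 12558 probe sets, with the log2 difference of 400 minus 150 mg/kg/day on the x axis and -log10 of the unadjusted p on the y axis. The 11 probe sets called higher at 400 are red and the 13 called lower are blue, with gene symbols where a probe set names 1 gene, and MT1G lies farthest out at -3.88.

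A wider set of genes differed without passing the adjusted threshold. At an unadjusted p under 0.05 there were 329 genes higher (4.00%) and 403 lower (4.90%) at 400 mg/kg/day, and 239 genes (2.91%) had all 4 arrays at 400 above those at 150 while 244 (2.97%) had all 4 below. The steps at lower doses had fewer calls. From 30 to 150 mg/kg/day 2 probe sets were called (0.0159%), those of MT1G and REST, and from 3 to 30 mg/kg/day 1 was called (0.00796%). Against vehicle of the same duration, 126 probe sets were called at 400 (1.00%) and 34 at 150 mg/kg/day (0.271%). Counts of calls in different comparisons do not test whether the comparisons differ.

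The number of calls depended on single animals and on how the spread was estimated. It fell from 24 to 5 without animal 1 at 400 mg/kg/day, and to 6 without animal 2 and to 6 without animal 3 at 150 mg/kg/day. It was 16 without animal 3 at 400 and 16 without animal 4 at 150 mg/kg/day. A fit to only the 8 arrays of both doses called 2 probe sets, those of MT1G and MT1H, against 1185 at an unadjusted p under 0.05, and a fit without the intensity trend called 10. Scaling all arrays to the same median gave 22 calls higher and 11 lower in place of 11 and 13.

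The metallothioneins, small metal-binding proteins, included the gene with the largest difference, MT1G, which was above vehicle at 150 mg/kg/day and was not called against vehicle at 400. MT1G (probe set 926_at) had intensities of 7472, 3077, 7153 and 2446 in the 4 animals at 150 mg/kg/day and of 230.1, 252, 706 and 168 at 400 mg/kg/day. Every animal at 150 lay above every animal at 400, and animal 3 at 400 was the highest of its group. MT1G was 14.7-fold lower at 400 than at 150 on the scale of intensity + 16, a log2 difference of -3.88 ± 0.46 (standard error of the fit, SE; adjusted p = 0.00022). Its mean was 621 ± 190.5 (SD, n = 3) in vehicle animals, 1064 ± 543 at 3 and 600.0 ± 242 at 30 mg/kg/day (SD, n = 4 each), 5037 ± 2643 at 150 and 339 ± 247 at 400 mg/kg/day (SD, n = 4 each). The level at 150 mg/kg/day therefore stood above all other doses and above vehicle, where the log2 difference of 150 from vehicle was 2.86 ± 0.50 (adjusted p = 0.00937) and that of 400 from vehicle was -1.02 ± 0.50 (adjusted p = 0.53).

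MT1H and MT1F were also lower at 400 than at 150 mg/kg/day. MT1H (39594_f_at) had 20375, 19337, 20085 and 20969 at 150 and 7144, 7250.1, 10432 and 9206 at 400 mg/kg/day, a log2 difference of -1.26 ± 0.17 (adjusted p = 0.000511). The 4 values at 150 lay within a narrow band, far above the highest animal at 400. MT1F (31622_f_at) had 16578, 18099, 18151 and 21646 at 150 and 8484, 9483, 11036 and 9839 at 400 mg/kg/day, a log2 difference of -0.94 ± 0.18 (adjusted p = 0.0265). In vehicle animals MT1H was 11934 ± 1735 and MT1F 12500 ± 2663 (SD, n = 3), between the levels of both doses. At 3 mg/kg/day MT1H was 15332 ± 3674 and MT1F 16011 ± 4759 (SD, n = 4 each), with a wide spread. Neither MT1H nor MT1F was called at either dose against vehicle, with log2 differences of 0.77 ± 0.18 and 0.59 ± 0.19 at 150 and of -0.50 ± 0.18 and -0.35 ± 0.19 at 400 mg/kg/day.

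Of 7 metallothionein genes measured, 3 fell (MT1G, MT1H and MT1F), none was called higher, and all 7 had a negative difference, with a median of -0.83 beside -0.01 over all genes. MT1E had a difference of -0.83 ± 0.20 (adjusted p = 0.0871) and MT1B one of -0.59 ± 0.19 (adjusted p = 0.277). MT1X was at -0.72 ± 0.32 and MT2A at -0.30 ± 0.17, both short of the threshold. Of the 7, 6 (all but MT1X) had arrays at 400 entirely below those at 150, where 2.97% of all genes did. The summed intensity of the 7 probe sets ran from 42982 to 59635 at 400 and from 97033 to 106170 at 150 mg/kg/day. In the other 15-day groups it ran from 58862 to 90775 on vehicle, 64650 to 107680 at 3 and 64884 to 68360 at 30 mg/kg/day. Animal 4 at 3 mg/kg/day thus lay above every animal at 150, so a high sum was not particular to 150 mg/kg/day. Metallothionein genes are near-identical in sequence, and the probe sets ending in _f_at detect several family members, so these 7 values are not independent and which member moved is uncertain. The MT1G and MT1H calls were kept in all 21 alternative fits, 8 of which left out 1 animal, while that of MT1F was lost without animals 1 or 2 at 400 or animals 2, 3 or 4 at 150 mg/kg/day, where the difference lay between -1.001 and -0.86 over the 8 such fits.

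CYP2E1, the cytochrome P450 that oxidises ethanol, acetone and other small molecules, fell at the top dose step. Its intensity at 1431_at was 3471, 12870.2, 7268 and 6495 at 150 and 244, 2036, 1545 and 2092 at 400 mg/kg/day. All animals at 400 lay below the lowest at 150, and animal 1 at 400 was the lowest of all. The difference was -2.56 ± 0.45 (adjusted p = 0.0162), a 5.9-fold lower level. Means were 13669 ± 1635 in vehicle animals (SD, n = 3), 18930 ± 4295 at 30 mg/kg/day, 7526 ± 3921 at 150 and 1479 ± 859 at 400 mg/kg/day (SD, n = 4 each). Its other probe set, 40379_at, had a difference of -1.91 ± 0.41 (SE; adjusted p = 0.0539), short of the threshold. The call at 1431_at was lost without animal 2 or animal 3 at 150 mg/kg/day, and over the 8 fits that left out 1 animal the difference lay between -2.88 and -1.85. Among 20 cytochromes P450 measured, CYP2E1 was the 1 gene called, and the median difference was 0.06, or -0.065 without animal 2 at 150 mg/kg/day. CYP3A4, a main drug-oxidising enzyme, had 3302 ± 611 at 150 and 5480.4 ± 2283 at 400 mg/kg/day (SD, n = 4 each), a difference of 0.65 ± 0.24 (adjusted p = 0.371), or 0.14 as the mean over its probe sets.

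In all, 4 secreted proteins of the liver fell. PZP, a protease inhibitor of the alpha-2-macroglobulin family, had intensities of 1072, 2552, 735 and 319 at 150 and 93.7, 285, 98 and 295 at 400 mg/kg/day (34641_at). The animals at 150 were widely spread, and the lowest of them, animal 4, was close to the highest at 400. The difference was -2.31 ± 0.47 (adjusted p = 0.0312), while vehicle animals had 1138 ± 68.6 (SD, n = 3), near the mean of 1169.6 ± 972 at 150 mg/kg/day. IGFALS, which encodes the acid-labile subunit that keeps IGF complexes in the circulation, had 1355, 1054, 824 and 443 at 150 and 264, 269, 243 and 369 at 400 mg/kg/day (573_at). Its difference was -1.54 ± 0.30 (adjusted p = 0.0268), and 3 of the 4 animals at 150 were far above the group at 400.

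HGFAC, a serine protease that activates hepatocyte growth factor, had 1054, 645, 726 and 864 at 150 and 375, 583, 349 and 332 at 400 mg/kg/day (35063_at), a difference of -0.99 ± 0.19 (adjusted p = 0.0268). Animal 2 at 400 came closest to the range at 150. HGFAC stepped down over both high doses, from 1787 ± 48.7 in vehicle animals (SD, n = 3) to 822 ± 179 at 150 and 410.0 ± 117 at 400 mg/kg/day (SD, n = 4 each). CFB, factor B of the alternative complement pathway, had 6146, 5544, 5521 and 4393 at 150 and 3226, 2851, 3072 and 4159.8 at 400 mg/kg/day (35822_at), a difference of -0.70 ± 0.14 (adjusted p = 0.0312). The highest animal at 400 was close to the lowest at 150, and the mean at 150 was near the 5973 ± 198 of vehicle animals (SD, n = 3).

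These 4 calls depended on which animals were included. That of PZP was lost without animals 1 or 3 at 400 or animals 1, 2 or 3 at 150 mg/kg/day, that of IGFALS without animals 1, 2 or 3 at 400 or animals 1, 2 or 3 at 150 mg/kg/day, that of HGFAC without animals 1, 3 or 4 at 400 or animals 1, 3 or 4 at 150 mg/kg/day and that of CFB without animals 1, 2 or 3 at 400 or animals 1, 2 or 3 at 150 mg/kg/day, each animal left out in turn. Over all 8 such fits the difference lay between -2.79 and -1.81 for PZP, between -1.84 and -1.32 for IGFALS, between -1.16 and -0.86 for HGFAC and between -0.81 and -0.63 for CFB. Scaling arrays to the same median gave CFB a difference of -0.63 with an adjusted p of 0.145, and a gene-level fit over the mean of each gene's probe sets left PZP at an adjusted p of 0.0534.

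**Figure D2:**
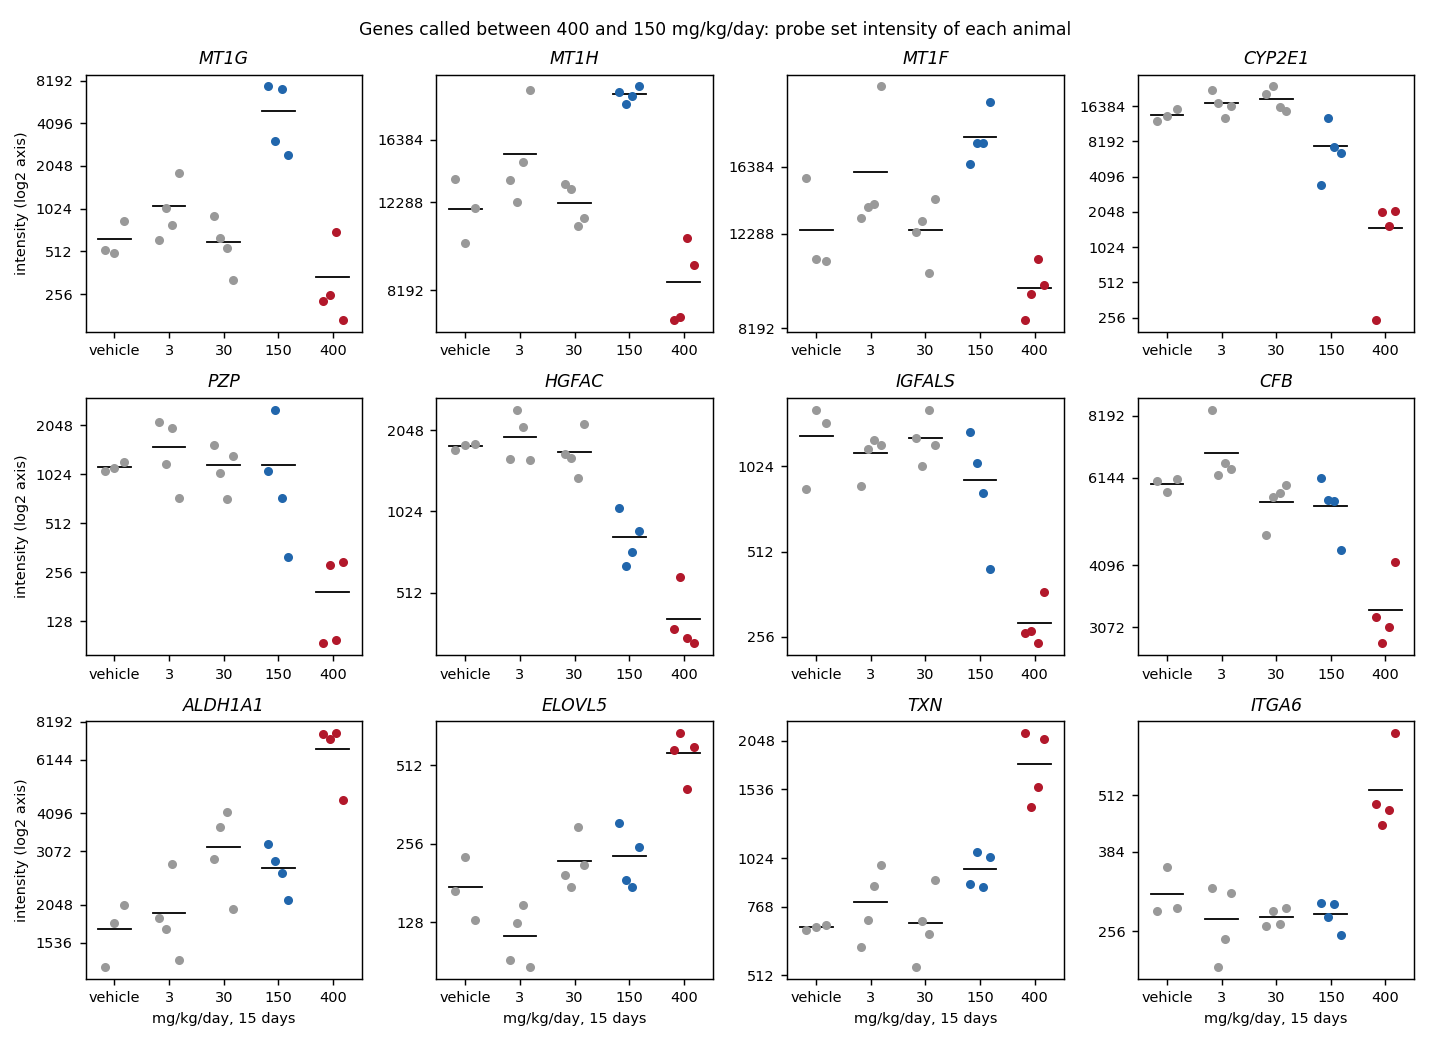
Probe set intensity (log2 axis) of each animal in the 5 groups at 15 days for 12 called genes, with 150 mg/kg/day in blue, 400 in red, other groups in grey and black bars at the arithmetic means. Mean levels of the metallothioneins peak at 150 mg/kg/day, with MT1H at 20191 ± 678 there and 8508 ± 1595 at 400. Those of ALDH1A1, ELOVL5, TXN and ITGA6 are highest at 400.

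Plasma protein genes as groups had more members below than above 0. Of 24 complement genes, CFB fell and none was called higher, and 4 lower and 0 higher passed an unadjusted p under 0.05, with a median difference of -0.22. C8B and C8A, which encode chains of the membrane attack complex component C8, had differences of -0.95 ± 0.23 (adjusted p = 0.0945) and -0.69 ± 0.22 (adjusted p = 0.293). Of 35 coagulation genes, HGFAC fell, 8 lower and 0 higher passed the unadjusted threshold, and the median was -0.25. F7, clotting factor VII, had a difference of -0.53 ± 0.15 (adjusted p = 0.223), and KLKB1, plasma prekallikrein, one of -0.69 ± 0.23 (adjusted p = 0.308). Over all genes 4.90% were lower and 4.00% higher at that threshold, and the median was -0.01.

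Of 32 acute phase and other plasma proteins, PZP fell, and the median was -0.19. In this list 10 lower and 1 higher passed the unadjusted threshold, where 4.90% and 4.00% of all genes did. ITIH2, a hyaluronan-binding inter-alpha-trypsin inhibitor chain, went from 2072 ± 637 at 150 to 1098 ± 105 at 400 mg/kg/day (SD, n = 4 each; difference -0.85 ± 0.21, adjusted p = 0.108). AZGP1, zinc-alpha-2-glycoprotein, had -1.13 ± 0.29 (adjusted p = 0.126), and HPX, the heme carrier hemopexin, had -0.92 ± 0.25 (adjusted p = 0.168). TTR, the thyroxine and retinol transport protein transthyretin, had a positive difference of 0.54 ± 0.20 (adjusted p = 0.375), so the plasma proteins did not all lie on one side. None of these 4 was called, although ITIH2 was called in 1 of the 8 fits with 1 animal left out, that without animal 4 at 150 mg/kg/day (difference -1.08).

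In the growth hormone and IGF axis, IGFALS fell. Of 21 genes, 5 lower and 1 higher passed the unadjusted threshold, where 4.90% and 4.00% of all genes did. The median of the list was -0.16, and it became -0.43 without animal 3 and -0.30 without animal 2 at 150 mg/kg/day. IGFBP3, the carrier that forms the circulating complex with IGF and the IGFALS product, went from 613 ± 115 to 416 ± 100.2 (SD, n = 4 each; difference -0.55 ± 0.18, adjusted p = 0.299). STAT5A and STAT5B, the transcription factors downstream of the growth hormone receptor, had -1.16 ± 0.42 and -1.11 ± 0.42 (adjusted p = 0.357 and 0.372). As means over all probe sets of the gene, IGFBP3 was at -0.27, STAT5A at -0.31 and STAT5B at -0.22. Both STAT5 probe sets were dim at 400 mg/kg/day, with means of 23.5 ± 2.36 and 28.1 ± 15.5 (SD, n = 4 each). Of 19 apolipoprotein and lipoprotein remodelling genes none was called in limma's test, 4 lower and 1 higher passed the unadjusted threshold, and the median was -0.30, or -0.48 without animal 3 at 400 mg/kg/day. APOE, the ligand that clears lipoprotein remnants, was at -0.67 ± 0.27 (adjusted p = 0.414) and PLTP, the phospholipid transfer protein, at -0.55 ± 0.16 (adjusted p = 0.201), while APOC1 was at 0.64 ± 0.21 (adjusted p = 0.299).

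At the top dose step 8 genes rose at a probe set that names 1 gene. ALDH1A1, which oxidises retinaldehyde to retinoic acid and also lipid aldehydes, had 3239, 2855, 2611 and 2128 at 150 and 7457, 7186, 7528 and 4538 at 400 mg/kg/day (37015_at). Animal 4 at 400 was the lowest of its group and still above every animal at 150. ALDH1A1 rose 2.44-fold, a difference of 1.28 ± 0.23 (adjusted p = 0.0202), against 1704 ± 388 in vehicle animals (SD, n = 3). TXN, thioredoxin, which reduces protein disulfides, had 878, 1063, 864 and 1029.5 at 150 and 2143, 1388, 1561 and 2065 at 400 mg/kg/day (36992_at), a difference of 0.87 ± 0.18 (adjusted p = 0.0312). No TXN value at 400 overlapped those at 150, and vehicle animals had 680.1 ± 11.3 (SD, n = 3).

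ELOVL5, which elongates polyunsaturated fatty acids, had 307, 187, 175 and 249 at 150 and 588, 680.2, 417 and 602 at 400 mg/kg/day at 33821_at (difference 1.27 ± 0.24, adjusted p = 0.0268). A second ELOVL5 probe set, 35117_at, had a difference of -0.21 ± 0.29 (SE), so the probe sets of this gene disagreed. ME1, the cytosolic malic enzyme that makes NADPH for fatty acid synthesis, had 164, 144, 122 and 132 at 150 and 487, 448, 356 and 302 at 400 mg/kg/day at 31824_at (difference 1.39 ± 0.28, adjusted p = 0.0312). Its probe set of highest mean, 837_s_at, had 1.05 ± 0.26 (adjusted p = 0.108), and 33644_at had -0.38. The ME1 probe sets 31824_at and 837_s_at thus went the same way and 33644_at did not.

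ITGA6, the alpha-6 chain of laminin receptors, had 295, 275, 295 and 251 at 150 and 489, 439, 474 and 703 at 400 mg/kg/day at 41266_at (difference 0.86 ± 0.17, adjusted p = 0.0268). Its 3 other probe sets had differences of 0.34, 0.11 and 0.19. PPP1CA, a catalytic subunit of protein phosphatase 1, had a mean of 665 ± 84.9 at 150 and 1148 ± 136 at 400 mg/kg/day (SD, n = 4 each) at 32157_at (difference 0.77 ± 0.14, adjusted p = 0.0202). PHLDA2, an imprinted gene with a pleckstrin homology domain, had 19, 21.9, 21.2 and 30.1 at 150 and 152, 47.7, 120.3 and 101 at 400 mg/kg/day at 40237_at (difference 1.56 ± 0.30, adjusted p = 0.0268). All 4 PHLDA2 values at 150 lay below the 40th percentile level of 39.7, where intensities are close to background, and the difference was 2.05 with a pseudocount of 1 and 0.92 with 64. Neither 32157_at nor 40237_at is its gene's probe set of highest mean. The PPP1CA and PHLDA2 probe sets of highest mean were not called, and their differences are not given here.

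EXOSC2, a subunit of the RNA exosome, gave the largest difference among the called genes that rose but was low at 150 rather than high at 400 mg/kg/day. At 32975_g_at it had 36.9, 42.3, 41 and 77.4 at 150 and 370.4, 126, 199 and 257 at 400 mg/kg/day, a difference of 1.90 ± 0.32 (adjusted p = 0.013). Vehicle animals had 304 ± 41.2 (SD, n = 3), so the level at 400 was near vehicle and the level at 150 below it, with a log2 difference of -2.32 ± 0.35 from vehicle at 150 (adjusted p = 0.00266). The other EXOSC2 probe set, 32974_at, had 0.26 ± 0.49 (SE), so this call rests on 1 probe set.

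The calls of the genes that rose were lost in these fits with 1 animal left out. ALDH1A1 was lost without animals 1, 2 or 3 at 400 or animals 2, 3 or 4 at 150 mg/kg/day, TXN without animals 1, 3 or 4 at 400 or animals 1, 2, 3 or 4 at 150 mg/kg/day, and ELOVL5 without animals 1, 2 or 4 at 400 or animals 2 or 3 at 150 mg/kg/day. ITGA6 was lost without animals 1, 3 or 4 at 400 or animals 2, 3 or 4 at 150 mg/kg/day, EXOSC2 without animal 1 at 400 or animals 2 or 3 at 150 mg/kg/day, and PPP1CA without animal 3 at 400 or animals 2 or 4 at 150 mg/kg/day. PHLDA2 was lost without animals 1, 3 or 4 at 400 or animals 1, 2 or 3 at 150 mg/kg/day, and ME1 without animals 1, 2 or 3 at 400 or animals 1, 2, 3 or 4 at 150 mg/kg/day. Over the 8 such fits the difference lay between 1.17 and 1.46 for ALDH1A1, between 0.78 and 0.98 for TXN, between 1.16 and 1.41 for ELOVL5, between 0.71 and 0.93 for ITGA6, between 1.67 and 2.15 for EXOSC2, between 0.70 and 0.86 for PPP1CA, between 1.37 and 1.84 for PHLDA2 and between 1.29 and 1.51 for ME1. The direction was the same in each of these fits for all 8 genes. Taking the mean over all probe sets of a gene ended the calls of ELOVL5 (difference 0.53, adjusted p = 0.44), ITGA6 (0.37, adjusted p = 0.721) and EXOSC2 (1.08, adjusted p = 0.224). The mean of ME1 was not called either, and those of PPP1CA and PHLDA2 were not examined.

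Fatty acid and triglyceride synthesis genes had 13 of 16 measured members with a positive difference. ELOVL5 was called higher at its probe set of highest mean, none was called lower, 5 higher and 1 lower passed the unadjusted threshold, where 4.00% and 4.90% of all genes did, and the median was 0.27. FASN, the fatty acid synthase, had 189.7, 51, 220.4 and 27.9 at 150 and 555, 428, 516 and 470.3 at 400 mg/kg/day. The 4 animals at 400 lay together above all at 150, whose values spread widely, and the difference of 2.21 ± 0.56 did not pass (adjusted p = 0.114). FASN in vehicle animals was 319 ± 176 (SD, n = 3), between both doses. SCD, the stearoyl-CoA desaturase that makes monounsaturated fatty acids, had 919, 178, 173 and 211 at 150 and 592, 1557, 733 and 1481 at 400 mg/kg/day. Animal 1 at 150 lay within the range at 400, and the difference was 1.78 ± 0.54 (adjusted p = 0.244). FADS2, the delta-6 desaturase, had 555 ± 25.1 at 150 and 972 ± 218 at 400 mg/kg/day (SD, n = 4 each), without overlap, and a difference of 0.76 ± 0.58 (adjusted p = 0.787).

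**Figure D3:**
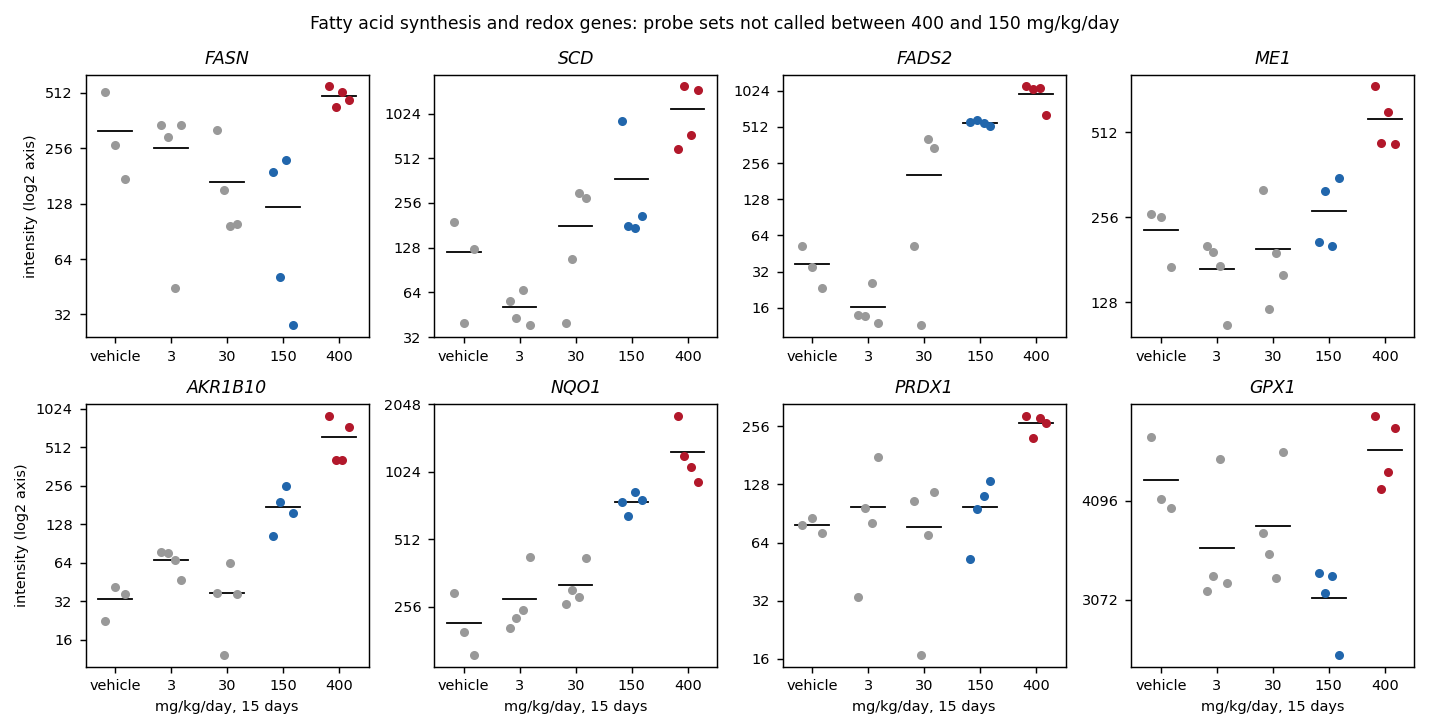
Probe set intensity (log2 axis) of each animal in the 5 groups at 15 days for 8 genes whose probe set of highest mean was not called, with 150 mg/kg/day in blue, 400 in red and bars at the arithmetic means. The 4 animals at 400 lie above the 4 at 150 in all panels but SCD, and ME1 is shown at 837_s_at (adjusted p = 0.108), not at its called probe set.

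Among 12 genes for fatty acid binding and lipid droplets none was called in limma's test. Of the 12, 2 higher and 0 lower passed the unadjusted threshold, where 4.00% and 4.90% of all genes did. FABP1, the liver fatty acid binding protein, went from 4738, 9823, 3404 and 6060.4 at 150 to 12948, 12258, 8308 and 10953 at 400 mg/kg/day, with overlapping groups, and its difference was 0.98 ± 0.49 (95% interval -0.03 to 1.98, adjusted p = 0.592). DBI, the acyl-CoA binding protein, had 0.62 ± 0.21 (adjusted p = 0.311), and PLIN2, which coats lipid droplets, had 0.68 ± 0.38 (adjusted p = 0.67). Of 18 cholesterol genes none was called, 1 higher and 2 lower passed the unadjusted threshold, and the median was 0.01. ACAT2, the cytosolic acetoacetyl-CoA thiolase, had 352, 264, 166 and 140.3 at 150 and 75.7, 81.8, 50.9 and 74.8 at 400 mg/kg/day without overlap (difference -1.44 ± 0.35, adjusted p = 0.0945), and FDPS, farnesyl diphosphate synthase, had 0.69 ± 0.26 in the other direction (adjusted p = 0.372).

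Of 39 measured oxidative stress and metal response genes, TXN rose and MT1G, MT1H and MT1F fell. In the whole list 8 higher and 6 lower passed the unadjusted threshold, where 4.00% and 4.90% of all genes did, 7 had arrays at 400 wholly above those at 150 and 6 wholly below, where 2.91% and 2.97% did, and the median was 0.16. The 6 lower in each count were metallothioneins, but not the same 6. MT2A did not pass the unadjusted threshold, and MT1X had overlapping arrays. AKR1B10, an aldo-keto reductase for lipid aldehydes, had 103, 190.5, 255 and 156 at 150 and 903, 407, 405 and 739 at 400 mg/kg/day, and vehicle animals had 33.4 ± 9.82 (SD, n = 3). The groups did not overlap, and the difference of 1.69 ± 0.37 did not pass (adjusted p = 0.0558). It was not called in any of the 8 fits that left out 1 animal and was called in 6 of 13 other fits, with adjusted p from 0.0198 to 0.191 over all 21. NQO1, the quinone reductase, went from 749.6 ± 75.0 to 1257 ± 393 (SD, n = 4 each; difference 0.69 ± 0.23, adjusted p = 0.311). GPX1 and PRDX1, which reduce peroxides with glutathione and thioredoxin and were chosen after their values were seen, had 0.62 ± 0.15 (adjusted p = 0.0901) and 1.35 ± 0.39 (adjusted p = 0.208), both without overlap.

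The drug's receptor and its classical targets were not called at this step. PPARA itself had 700, 895, 992 and 842 at 150 and 479.6, 421, 524 and 419 at 400 mg/kg/day. The 4 animals at 400 lay below the 4 at 150, and vehicle animals had 618 ± 72.2 (SD, n = 3), in between. Its difference of -0.87 ± 0.19 had an adjusted p of 0.0539. It was called in 1 of the 8 fits that left out 1 animal, the one without animal 1 at 150 mg/kg/day, and in 6 of 13 other fits, with adjusted p from 0.0258 to 0.181 over all 21. Of 17 PPAR-alpha targets measured, 0 were called in either direction in limma's test. At an unadjusted p under 0.05, 4 were higher and 1 lower, beside 4.00% and 4.90% of all genes. The median of the targets was 0.28. The median was 0.14 without animal 3 at 400 and 0.42 without animal 2 at 150 mg/kg/day.

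Several oxidation genes had intervals close around 0. ACADM, the medium-chain acyl-CoA dehydrogenase, had 13150 ± 1719 at 150 and 12766 ± 576 at 400 mg/kg/day (SD, n = 4 each), a difference of -0.03 with a 95% interval of -0.38 to 0.32, although vehicle animals had 7942 ± 1081 (SD, n = 3). HADHA, the alpha chain of the mitochondrial trifunctional protein, had 1492 ± 182 and 1284 ± 189.9 (SD, n = 4 each; interval -0.64 to 0.20), beside 579 ± 192 in vehicle animals (SD, n = 3). CPT1A, an enzyme of mitochondrial fatty acid uptake, had a wider interval of -0.67 to 0.82. That of EHHADH, the peroxisomal bifunctional enzyme, was -0.83 to 0.73 at a probe set near background, where the scale understates differences. The intervals of ACADM, HADHA and CPT1A excluded a log2 difference of 1 in either direction.

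Other targets were spread on both sides of 0. ACAA1, the peroxisomal thiolase, went from 1922 ± 314 to 1354 ± 75.2 (SD, n = 4 each; difference -0.49 ± 0.16, adjusted p = 0.308), with no overlap and with the lower level at the higher dose. CAT, catalase, had 0.99 ± 0.33 (adjusted p = 0.308), PEX11A, a peroxisome division factor, 0.93 ± 0.31 (adjusted p = 0.308), and TXNIP, the thioredoxin-interacting protein, 1.22 ± 0.50 (adjusted p = 0.436). PDK4, which inhibits pyruvate dehydrogenase, had 0.77 ± 0.35 (adjusted p = 0.528), VNN1, pantetheinase, 0.28 ± 0.28, and SLC27A2, a fatty acid transporter and very long-chain acyl-CoA synthetase, -0.44 ± 0.30. Over 20 mitochondrial oxidation genes none was called. In this list 3 higher and 1 lower passed the unadjusted threshold, where 4.00% and 4.90% of all genes did. The median of the 20 was 0.03, and -0.15 without animal 3 at 150 mg/kg/day. SLC22A5, the carnitine transporter, had 1.15 ± 0.36 (adjusted p = 0.278) without overlap, and ACADS, the short-chain acyl-CoA dehydrogenase, had -0.58 ± 0.26 (adjusted p = 0.496). Over 11 peroxisomal oxidation genes the median was -0.03, or 0.17 without animal 4 at 400 mg/kg/day, none was called, and 1 higher and 1 lower passed the unadjusted threshold.

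**Figure D4:**
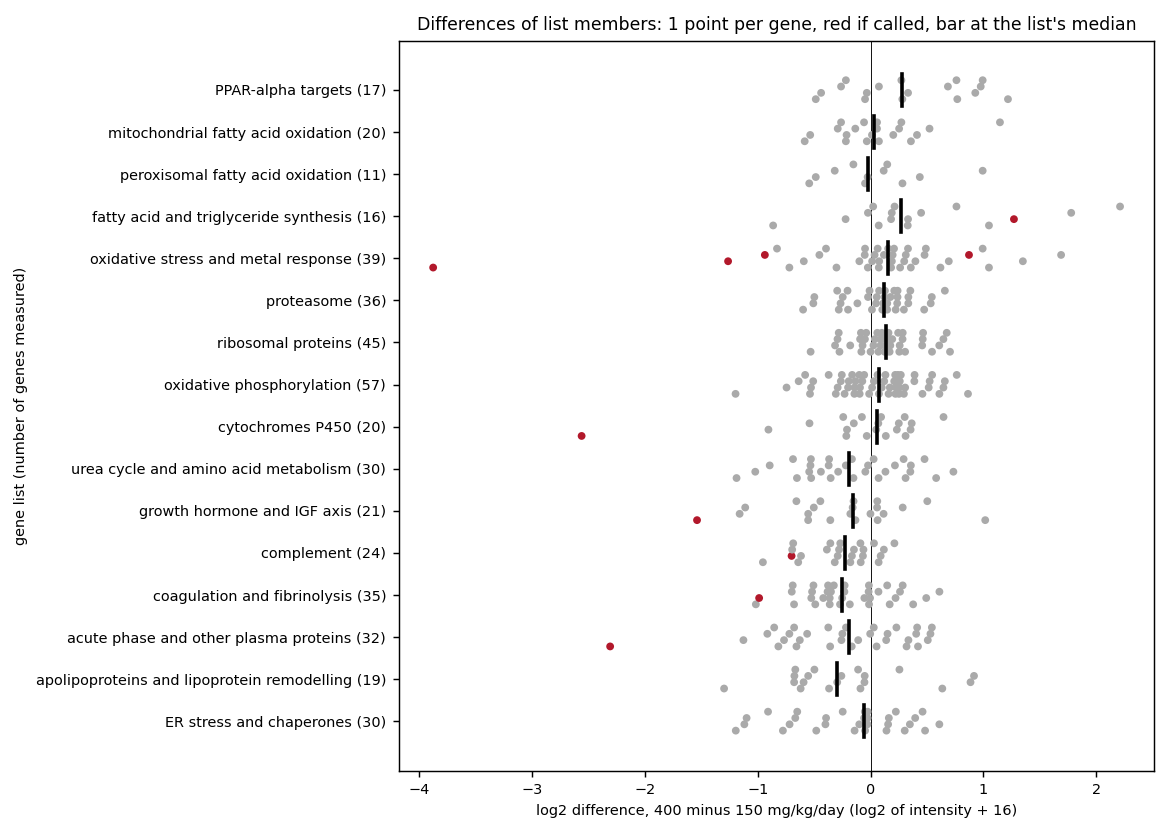
Log2 difference of 400 minus 150 mg/kg/day (x axis) for each measured gene of 16 lists (y axis, number of genes in brackets), red where called, with a black bar at each list's median. Medians run from -0.30 for apolipoproteins to 0.28 for PPAR-alpha targets, and called genes lie in 7 of the lists.

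Of 30 amino acid metabolism genes none was called, and 7 lower and 0 higher passed the unadjusted threshold, where 4.90% and 4.00% of all genes did. Their median was -0.19, or -0.096 without animal 2 at 150 mg/kg/day. GPT, alanine aminotransferase, had 1422, 1202, 1080.1 and 1580 at 150 and 806, 740.1, 982 and 718 at 400 mg/kg/day. No GPT value at 400 reached those at 150, and the difference of -0.69 ± 0.16 did not pass (adjusted p = 0.0848). CBS, cystathionine beta-synthase, went from 364 ± 68.8 to 169 ± 22.8 (SD, n = 4 each; difference -1.02 ± 0.29, adjusted p = 0.201), and HPD, a tyrosine catabolic dioxygenase, had -0.65 ± 0.22 (adjusted p = 0.308). Of 15 bile acid genes none was called, 1 lower and 0 higher passed the unadjusted threshold, and ABCB4, the canalicular phospholipid exporter, had -0.57 ± 0.24 (adjusted p = 0.454). Among 37 conjugation and other drug metabolism genes, at probe sets that name 1 gene, ALDH1A1 was called higher and none lower. In this list 3 higher and 4 lower passed the unadjusted threshold, where 4.00% and 4.90% of all genes did. A positive difference was seen in 15 and a negative one in 22, and the median was -0.07. UGT2B7 and UGT2B11, glucuronosyltransferases of a closely related family, had 0.93 ± 0.32 and 0.67 ± 0.23 (adjusted p = 0.311 for each). The probe set 38781_at, which names both GSTA1 and GSTA2, was called higher at 1.29 ± 0.26 (adjusted p = 0.0327).

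Of 57 oxidative phosphorylation genes, 45 ribosomal protein genes and 36 proteasome genes none was called in limma's test. In oxidative phosphorylation 7 higher and 5 lower passed the unadjusted threshold, where 4.00% and 4.90% of all genes did, and the median was 0.07. COX6A1, a subunit of cytochrome c oxidase, went from 10191 ± 831 to 14642 ± 1073 (SD, n = 4 each; difference 0.52 ± 0.12, adjusted p = 0.0751) and NDUFA2, of complex I, had 0.86 ± 0.19 (adjusted p = 0.0559), while SDHA, of complex II, had -0.58 ± 0.15 (adjusted p = 0.148). NDUFA2 was called in 1 of 8 fits with 1 animal left out, that without animal 1 at 150 mg/kg/day, with a difference of 0.97. Ribosomal protein genes had 7 higher and 1 lower and a median of 0.13, with RPL29 at 0.70 ± 0.15 (adjusted p = 0.0559) and RPL13 at 0.67 ± 0.18 (adjusted p = 0.137), and RPL29 was called in 1 of 8 fits with 1 animal left out, that without animal 4 at 150 mg/kg/day, with 0.80. Ribosomal protein genes have many pseudogene copies, so their probe sets may not be specific. Proteasome genes had 4 higher and 1 lower and a median of 0.12, with PSMB4 and PSMB3, core subunits, at 0.66 ± 0.22 and 0.54 ± 0.18 (adjusted p = 0.308 and 0.311).

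Stress, growth and inflammation lists gave no calls in limma's test. Over all genes, 4.90% were lower and 4.00% higher at an unadjusted p under 0.05. Among 30 chaperone and ER stress genes 5 lower and 1 higher passed the unadjusted threshold, among them DNAJA1, an HSP70 co-chaperone, at -1.10 ± 0.40 (adjusted p = 0.346) and HSP90AB1, a cytosolic HSP90, at -0.65 ± 0.21 (adjusted p = 0.308). Of 58 cell cycle genes 3 lower and 1 higher did, and 24 of the 58 had a mean under the 40th percentile level, so much of that list was near background. Of 49 inflammation and interferon genes 4 higher and 3 lower did, with CCL15, a chemokine made by hepatocytes, at 1.15 ± 0.33 (adjusted p = 0.206) and CXCL12, a chemokine of stromal and endothelial cells, at -0.93 ± 0.28 (adjusted p = 0.236). Of 35 immediate early genes 4 lower and 1 higher did, with DUSP1, a phosphatase of MAP kinases, at -0.80 ± 0.33 (adjusted p = 0.452). Of 24 nuclear receptor and transcription factor genes 1 higher and 2 lower did, and DBP, a clock-controlled transcription factor, had 218, 245, 81.3 and 255 at 150 and 529.7, 483, 562 and 636 at 400 mg/kg/day without overlap (difference 1.498 ± 0.45, adjusted p = 0.236).

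Some of the lowest p values came from dim probe sets. REST, a repressor of neuronal genes, had 50, 50.3, 41.8 and 61.5 at 150 and 5, 7.6, 14.4 and 5.3 at 400 mg/kg/day at 34275_s_at (difference -1.48 ± 0.19, adjusted p = 0.000279). The values at 400 are near background, so the size of the difference moves with the pseudocount, at -2.61 with 1 and -0.67 with 64, and the call was lost in the fit to the 8 arrays (adjusted p = 0.0964). Vehicle animals had 8.5 ± 1.01 (SD, n = 3), so REST stood out at 150 mg/kg/day at a level just above the 40th percentile level of 39.7 and its level at 400 was as low as on vehicle. Below called status, PCSK5, a proprotein convertase, went from 22.0 ± 4.38 to 74.1 ± 18.5 (SD, n = 4 each; adjusted p = 0.0558) and COL9A3, a collagen IX chain, from 7.78 ± 1.91 to 55.5 ± 18.4 (SD, n = 4 each; adjusted p = 0.056). Among the 4 called probe sets without a gene name, 31697_s_at was bright and rose from 13250 ± 3119 to 22197 ± 1013 (SD, n = 4 each). Also bright, 31623_f_at fell from 19623 ± 1120 to 10202 ± 1904 (SD, n = 4 each). The probe set 39180_at fell from 478 ± 78.3 to 196 ± 32.7 and 39560_at from 108 ± 49.1 to 14.5 ± 11.6 (SD, n = 4 each).

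Set beside vehicle, the called probe sets fell into different patterns. Both doses were compared with the same 3 vehicle animals and the animals of each dose also enter the dose step, so the values are given side by side without a test. For 10 of 24 called probe sets the mean at 150 lay between vehicle and 400 mg/kg/day, 6 of those higher and 4 of those lower at 400. CYP2E1 was -1.003 ± 0.48 from vehicle at 150 and -3.56 ± 0.48 at 400 mg/kg/day (adjusted p = 0.549 and 0.000204), and HGFAC was -1.13 ± 0.21 and -2.12 ± 0.21 (adjusted p = 0.0125 and 5.94e-06). ALDH1A1 was 0.67 ± 0.25 and 1.96 ± 0.25 (adjusted p = 0.379 and 0.000153). These 3 genes moved further from vehicle at the higher dose. In MT1G, REST and EXOSC2 the dose that stood away from vehicle was 150, and the mean at 400 was nearer to it. Of the 24 probe sets, 12 were also called at 400 against vehicle and 4 at 150 against vehicle.

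**Figure D5:**
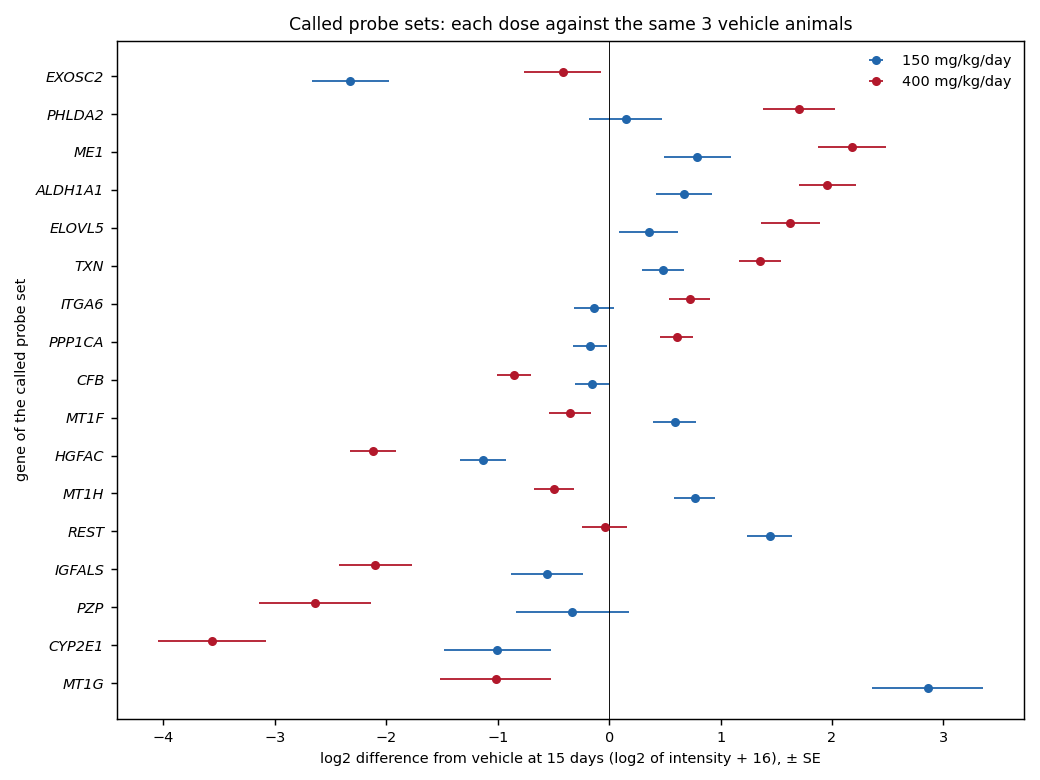
Log2 difference from the 3 vehicle animals at 15 days, with the SE of the fit, for the called probe set of 17 genes (y axis), at 150 (blue) and 400 mg/kg/day (red). MT1G is at 2.86 ± 0.50 at 150 and -1.02 ± 0.50 at 400, REST and EXOSC2 depart from 0 mainly at 150, and CYP2E1, PZP and IGFALS mainly at 400.

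The animals dosed for 4 days share no array with the dose step. At 400 mg/kg/day against vehicle for 4 days (2 animals each), 9 of the 11 probe sets called higher (81.8%) and 11 of the 13 called lower (84.6%) had a difference of the same sign, beside 53.3% of all probe sets having the same sign in both comparisons. PZP was called there, at -3.64 ± 0.66 (adjusted p = 0.0245), with 235 ± 135 at 400 mg/kg/day and 2929.7 ± 863 on vehicle (SD, n = 2 each). TXN was at 1.20 ± 0.25 (adjusted p = 0.0509), CYP2E1 at -1.54 ± 0.63 (adjusted p = 0.715) and IGFALS at -1.38 ± 0.42 (adjusted p = 0.387). MT1G, MT1H and REST were near 0, at -0.33 ± 0.65, -0.07 ± 0.24 and -0.06 ± 0.26, in this comparison, which holds no animal at 150 mg/kg/day. They count among the 11 of the same sign, as does MT1F at -0.03 ± 0.25. The metallothionein probe sets are not independent of each other, so the shares are not counts of separate genes. With 2 animals in each group the precision is low.

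Markers of other liver cells gave no calls in limma's test. In bulk liver, fewer cells of a type and less RNA per cell cannot be told apart. Summed over 14 Kupffer cell and macrophage markers, intensity ran from 3291 to 4327 at 400 and from 3981 to 4587 at 150 mg/kg/day, and over 13 endothelial markers from 2155 to 2689 and from 2212 to 3178. The 20 stellate cell markers summed to 2276 to 2577 at 400 and 2081 to 3156 at 150, and the 15 neutrophil markers to 1188 to 1421 and 806 to 1397. For 11 cholangiocyte markers the sums were 826 to 1055 and 723 to 916, with the smallest p of the 12 measures tested (exact permutation p = 0.0571, 0.343 after adjustment). Sums over 21 T and NK cell markers ran from 1674 to 2127 and from 1569 to 1910, over 11 B and plasma cell markers from 899 to 1014 and from 675 to 1062, over 6 red cell markers from 1669 to 2509 and from 1085 to 2328, and over 13 adipose and muscle markers from 1698 to 2127 and from 1913 to 2453. Each of these 9 lists had 1 to 7 markers with a mean under 39.7, and 0 to 3 members in each direction at an unadjusted p under 0.05. At that threshold 4.00% of all genes were higher and 4.90% lower. LCN2, a neutrophil granule protein also made by stressed hepatocytes, had 1.29 ± 0.39 (adjusted p = 0.236) and MARCO, a Kupffer cell receptor, -0.92 ± 0.46 (adjusted p = 0.594). Hepatocyte markers summed to 72576 to 88849 at 400 and 77909 to 110310 at 150 mg/kg/day. The part of any of these in the called genes was not tested.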

How the data were processed

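Probe set intensity values were computed by the authors with MAS5, per the submitters' processing notes. Neither its version nor its settings are given in the sources used. The deposited intensities are linear and, trimmed by 2% at each end, have array means of 150.06 to 150.08, so they were not rescaled. RNA came from frozen right lateral lobe and was labelled with biotin, per the labels' protocols. Probe sets target human genes, so monkey sequence differences can alter an intensity, and no probe set's level is set against another's.

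After 67 control probe sets were removed from 12625, limma 3.58.1 in R 4.3.3 fitted a means model of 7 groups to log2(intensity + 16) of all 23 arrays (eBayes with an intensity trend, 16 residual and 7.06 prior degrees of freedom). All groups thus share an estimate of spread. Two-sided p values were corrected over 12558 probe sets (Benjamini-Hochberg) with no filter on low values, and "called" means an adjusted p under 0.05. Fold changes are on the scale of intensity + 16 and understate changes of dim probe sets. The number of arrays limits the precision. The script was tested on simulated data.

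Of all probe sets, 10961 name 1 gene, 545 several and 1119 none. Each gene is represented by the probe set of highest mean among those that name it alone. Genes named are the called genes, filled up to 10 per direction with the smallest p among genes without overlap, up to 4 members of each list by smallest p, PPAR-alpha targets, and 14 further genes from comparisons with vehicle, with GPX1 and PRDX1 added. The members and lists were chosen with earlier results of these data known. Of 1137 genes in 39 lists (10 of cell type markers), 894 were measured. Same-numbered animals of both doses did not pair (correlations of deviations from -0.02 to -0.01). Scan dates or other batches are not given in the sources used here, so none was tested. Alternatives were other pseudocounts, filters, scalings and variance settings, a replicate block, fewer arrays, the mean over all probe sets of a gene, and leaving out each animal in turn.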

Additional observations from a re-analysis of the deposited data

Results flagged for a closer look

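In 210 groups of 4 animals (the named genes at each dose), 15 had 1 animal whose gap to the nearest of the others was, as a share of the group's range, above Dixon's 95% critical value, which chance alone gives in about 1 group in 20.

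Of the called genes, MT1G in animal 3 at 400 mg/kg/day was 705.6, with the others between 168.1 and 252.4. EXOSC2 in animal 4 at 150 mg/kg/day was 77.4, with the others between 36.9 and 42.3. ALDH1A1 in animal 4 at 400 mg/kg/day was 4538.4, with the others between 7185.5 and 7528. HGFAC in animal 2 at 400 mg/kg/day was 583.3, with the others between 332.5 and 375.1. In each of these 4 the animal lay toward the other dose's range without entering it.

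Among genes not called, MT1E in animal 1 at 400 mg/kg/day was 14551.4, below the others. SCD in animal 1 at 150 mg/kg/day was 918.6, with the others between 173 and 210.6. FADS2 was 647 in animal 4 at 400 mg/kg/day, with the others at 1052.4 or above. ITIH2 was 939.8 and FGL1 949.7 in the same animal. CPT1A was 129.7 in animal 1 at 400 mg/kg/day. At 150 mg/kg/day APOE was 2454.7 and ACACB 499.6 in animal 2, PSMD5 459.6 and TIMP1 41.1 in animal 1, and PSMB2 1344.7 in animal 4.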

How the results depend on the processing

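The 11 probe sets called higher and 13 lower became 19 and 18 with only probe sets at or above the 40th percentile of mean level, 21 and 20 at the 60th, 17 and 19 after quantile normalization, 22 and 11 with arrays scaled to the same median, 4 and 6 without the intensity trend, 25 and 26 with array weights, and 0 and 2 with only the 8 arrays of both doses. Leaving out each animal in turn gave 1 to 11 higher and 4 to 13 lower. Of the 24, 21 were still called with the 40th percentile filter (the other 3 were not tested there), 24 with array weights and 8 without the trend. With the replicate block, 14 were called higher and 16 lower, 23 of the 24 among them (ME1 was lost), although the numbers do not pair the samples.

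The 2 calls from 30 to 150 mg/kg/day became 1 with pseudocount 1, with the 40th percentile filter and with array weights, 4 with pseudocount 64 and with the same median, and 8 with the 60th percentile filter, and 2 to 6 with 1 animal left out. The 1 call from 3 to 30 mg/kg/day became 0 with pseudocount 64, without the trend, with array weights, with the replicate block and with only the 19 arrays at 15 days, and 0 to 1 with 1 animal left out.

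In the fit to the mean over all probe sets of a gene, ELOVL5, ITGA6, EXOSC2 and PZP were not called. PZP kept its difference of -2.31 there, so averaging did not change its value. The mean of ME1 was not called either, and those of PPP1CA and PHLDA2 were not examined. The fit to gene means also gave DNAJA1 -0.53, HSP90AB1 -0.38 and CXCL12 -0.51. With only the 19 arrays at 15 days the calls of TXN, CFB and ME1 were lost, and with pseudocount 1 that of ME1.

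Some list medians near 0 changed sign. That of peroxisomal oxidation ran from -0.11 to 0.168 over the alternatives, of mitochondrial oxidation from -0.147 to 0.108, of cytochromes P450 from -0.065 to 0.142, of oxidative phosphorylation from -0.012 to 0.147 and of cholesterol genes from -0.041 to 0.107. Among the named genes, signs changed for EHHADH, ACADM and CPT1A. EHHADH was 0.058 with pseudocount 1 and between -0.385 and 0.168 with 1 animal left out. ACADM was 0.076 after quantile normalization, 0.041 with the same median, and between -0.122 and 0.021 with 1 animal left out. CPT1A lay between -0.193 and 0.346 with 1 animal left out. The causes were not tested. Probe sets under an intensity of about 39.7 are limited by background.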
